A study of Mus musculus with 30 samples.

Results

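The genes that encode the proteasome, its activators, its assembly factors and the transcription factor Nfe2l1 were followed in 2 mouse cell lines held in cycloheximide, an inhibitor of translation elongation, at 0.1 µg/mL. The members were the rows whose Ensembl identifier, without its version, maps to 1 of 48 listed mouse symbols, and all 48 were found among the 57186 rows of the count table. RNA was sequenced from NIH/3T3, an immortalised mouse fibroblast line kept in serum, and from CGR8, a mouse embryonic stem cell line grown with 2i and LIF in the N2B27 medium. Both lines carry a ROSA26 SLT knock-in, in the untreated groups too, and 0.1 µg/mL is the only dose. Each line was sampled at 0, 1, 2, 5 and 48 h in 3 replicates lettered A to C, which gives 10 groups and 30 libraries. The labels do not say that replicates came from separate cultures, so p-values measure the spread between these libraries, which may be technical. In bulk RNA a lower level in every cell and fewer cells that hold the transcript cannot be told apart.

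The proteasome degrades proteins tagged with ubiquitin. Its barrel-shaped 20S core is built from outer alpha rings, which gate the entrance, and inner beta rings, which hold the cutting sites. The 19S cap sits on the barrel: its base unfolds substrates with a ring of ATPases, and its lid removes the ubiquitin. In immune cells and after interferon, alternative beta subunits form the immunoproteasome, and activators of the PA28 and PA200 families can take the place of the cap. Nfe2l1 encodes NRF1, a transcription factor that is degraded by the proteasome itself and raises proteasome gene transcription when proteasome activity falls short. Here 7 members belong to the alpha ring, 7 to the beta ring, 3 to the immunoproteasome, 10 to the base, 8 to the lid, 4 to the activators and 8 to the assembly factors, with Nfe2l1 alone as the regulator.

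Library totals ran from 18.2 to 30.5 M counts, and the labelled lines had the markers of their type. The 6 stem cell markers lay between 375 CPM (Tdgf1) and 2030 CPM (Dppa5a) in CGR8 and at or under 0.383 CPM in NIH/3T3. The collagen genes Col1a1 and Col1a2 were at 1600 CPM or more in every NIH/3T3 library, while Thy1 was at or under 0.093 CPM and Postn under 1 CPM there. CPM here are the usual depth-scaled counts, over the tested genes' counts after TMM scaling within a line. Libraries of 1 group did not all lie together: NIH/3T3 1 h C, NIH/3T3 2 h A, CGR8 0 h B and CGR8 2 h A each correlated less well with both other replicates than those did with each other, by over 0.005. The core genes moved with NIH/3T3 1 h C and CGR8 0 h B, but not with the 2 h libraries just named. The mean log2 level of the core genes relative to 0 h was 0.46 in NIH/3T3 1 h C against -0.09 and -0.16 in the other replicates. It was 0.25 in CGR8 0 h B against -0.14 and -0.11. In NIH/3T3 at 2 h, replicate A (0.43) lay between B (0.41) and C (0.48). In CGR8 at 2 h, replicate B (0.08) lay under A (0.55) and C (0.53), and at 5 h replicate C (0.50) lay under A (0.91) and B (0.87).

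In untreated cells the core and cap transcripts were among the more abundant of the set and the immunoproteasome transcripts the lowest. Per kilobase of principal transcript, the median level at 0 h was 185 CPM per kb for alpha ring genes in NIH/3T3 and 172 in CGR8, 235 and 195 for the beta ring, 128 and 153 for the base, and 146 and 131 for the lid. Activators (40.1 and 45.9 CPM per kb) and assembly factors (31.9 and 26) were lower. Within the core, Psma7 was the highest alpha subunit in NIH/3T3 (451 ± 9.59 CPM per kb, SD, n = 3) and Psmb6, the caspase-like catalytic subunit, the highest beta subunit in CGR8 (399 ± 80.3, SD, n = 3). Psmb5, the chymotrypsin-like catalytic subunit, was the lowest beta ring gene in both lines, at 66.1 ± 12.9 and 76.6 ± 23.2 CPM per kb, but its counts are uncertain. A processed pseudogene, Gm3375, has 98.9% identity to it over 796 bases and took between 48.6% and 60.1% of the counts of the pair in the 30 libraries. On the joint scale of both lines, 8 members were higher in untreated CGR8 than in untreated NIH/3T3 and 12 lower, beside 42.8% and 36.3% of all 17549 genes tested. The median difference over the 47 members tested was 0.00 on the log2 scale, against 0.15 over all genes. Pomp, the chaperone that matures the beta ring, stood at 139 ± 15.3 CPM in CGR8 and 261 ± 9.47 CPM in NIH/3T3 (log2 difference -0.91 ± 0.15 SE, edgeR quasi-likelihood adjusted p 2.39e-06). Psmg1, a chaperone of the alpha ring, went the other way, with 77.3 ± 15.6 CPM in CGR8 and 34.9 ± 0.813 CPM in NIH/3T3 (1.14 ± 0.16, adjusted p 3.03e-07). Of the 8 assembly factors 5 were lower and 1 higher in CGR8.

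The share of all counts that fell on the 48 genes was 0.989% to 1.02% in untreated NIH/3T3, 1.16% to 1.21% at 5 h and 0.729% to 0.749% at 48 h, with no overlap between these groups. In CGR8 it was 0.971% to 1.1% untreated, 1.23% to 1.41% at 5 h and 0.915% to 0.982% at 48 h, where the untreated and 48 h libraries overlapped. Changes below are log2 fold changes from edgeR's quasi-likelihood test within a line, ± their standard error, and a gene is called at a Benjamini-Hochberg adjusted p under 0.05 over all genes tested. Of the 48 members 47 passed the low-count filter. Psmb8 did not, with 5 counts over the 15 NIH/3T3 libraries and 3 over the 15 CGR8 libraries.

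**Figure D1:**
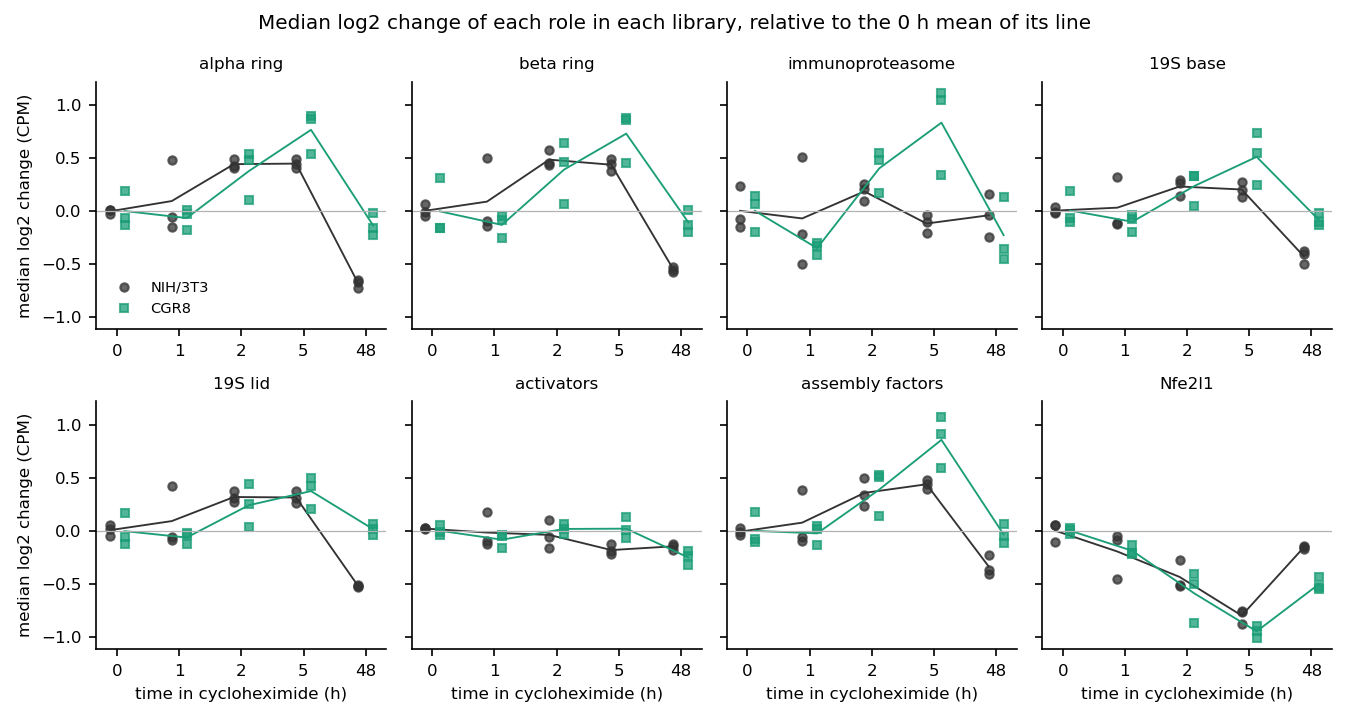
Median log2 change of the members of each role in each library (y axis), relative to the mean of the 0 h libraries of the same line, by time in cycloheximide (x axis, h, not to scale). Circles are NIH/3T3 libraries, squares CGR8 libraries, and lines join the means of 3 libraries; the core, base, lid and assembly panels peak at 2 or 5 h, Nfe2l1 is lowest at 5 h, and NIH/3T3 alone is well under 0 at 48 h in the core and lid panels.

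At 1 h edgeR called 0 members in either line, beside 0.732% of 13941 genes tested in NIH/3T3 and 0.27% of 15933 in CGR8. At an unadjusted p under 0.05 there were 0 members in NIH/3T3 (11.3% of all genes) and 1 in CGR8 (8.09%), and DESeq2 called 0 in both. The members' median was 0.06 in NIH/3T3 and -0.12 without replicate 1 h C. Without the libraries that stand apart, 7 passed at 1 h in NIH/3T3, all lower, among them Psma7, Psmc5 and Pomp. The share of all genes called in that fit, chosen after seeing the data, is not given here. Whether the 7 exceed it was not tested.

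At 2 h 21 members were higher and 3 lower in NIH/3T3, beside 16.1% of all genes called higher and 18.9% called lower. In CGR8 10 were higher and 1 lower, beside 8.97% and 11%. The medians over the members were 0.32 and 0.34, and those over all genes -0.01 and 0.01. With length and GC trends removed they were 0.09 and 0.06, and 10 of the 21 rises in NIH/3T3 and 3 of the 10 in CGR8 were kept. In NIH/3T3 10 of the 14 core genes and 8 of the 18 cap genes were higher. In CGR8 the count rested on single libraries: against 11 with all, it was 30 without 2 h B and 24 without 0 h B, but 6 without 2 h A, 3 without 0 h C and 1 without 0 h A or without 2 h C. In NIH/3T3, against 24, it was 13 to 22 with any 1 library left out (13 without 0 h A, 15 without 2 h C). It was 40 without the libraries that stand apart.

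At 5 h most core genes were called higher, fewer of them once length trends were removed. In NIH/3T3 24 members were higher and 5 lower, beside 24% and 27.1% of all genes, and in CGR8 36 were higher and 4 lower, beside 24.9% and 27.2%. The medians were 0.27 and 0.68, against -0.01 over all genes in both lines. The NIH/3T3 count of 29 was lower whichever library was left out, at 19 to 23, with 19 without 0 h A or without 5 h B. Of the 14 alpha and beta ring genes 11 rose in NIH/3T3 (range of all 14 from 0.13 to 0.74) and all 14 in CGR8 (0.45 to 1.04). With smooth trends in transcript length and GC content removed, 4 of the 14 stayed higher in each line. The alpha ring then had 2 higher and 2 lower in NIH/3T3 (median 0.01) and 1 and 1 in CGR8 (0.15), and the beta ring 2 and 1 in NIH/3T3 (0.04) and 3 and 1 in CGR8 (0.28). The cap was less even. Of its 18 genes 8 rose and 2 fell in NIH/3T3 (-0.89 to 0.76), and 11 rose and 1 fell in CGR8 (-0.86 to 0.97).

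Psma7 and Psma6, both of the alpha ring, had the largest rises of their ring. Psma7 was at 200, 237 and 208 CPM in untreated CGR8 and at 499, 446 and 379 CPM after 5 h. The groups were apart, with a 2.05-fold rise (log2 1.04 ± 0.14, adjusted p 3.19e-05). In NIH/3T3 it went from 396, 417 and 406 CPM to 639, 587 and 587 CPM (0.57 ± 0.16, adjusted p 0.00725). Psma6 stood at 236, 239 and 256 CPM in untreated NIH/3T3 and at 410, 417 and 394 CPM at 5 h, again without overlap (0.74 ± 0.14, adjusted p 0.00031). Of the beta ring, Psmb6 rose from 231, 238 and 251 CPM to 353, 338 and 312 CPM in NIH/3T3 (0.48 ± 0.17, adjusted p 0.0278). In CGR8 it rose from 283, 396 and 292 CPM to 678, 663 and 446 CPM, where the lowest library at 5 h still lay above the highest untreated one (0.88 ± 0.18, adjusted p 0.000664). The NIH/3T3 call for Psmb6 was lost when any of 5 libraries was left out, with adjusted p between 0.0514 and 0.0845. Psmb5 rose in CGR8 by 0.87 ± 0.23 (adjusted p 0.00551), although its lowest 5 h library (82.8 CPM) lay under its highest untreated one (94 CPM). Its copy Gm3375 rose by 0.72 ± 0.15 (adjusted p 0.000843), and in NIH/3T3 the values were 0.17 for Psmb5, not called, and 0.35 for the copy.

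In the base the 6 ATPases (Psmc1 to Psmc6) were all called higher in CGR8 and 3 of them in NIH/3T3, and in the lid 4 of 8 genes rose in CGR8 and 5 of 8 in NIH/3T3. Psmc6, an ATPase of the base, went from 237, 234 and 219 CPM to 367, 405 and 398 CPM in NIH/3T3 (0.76 ± 0.13, adjusted p 0.000126) and from 226, 246 and 256 CPM to 416, 461 and 437 CPM in CGR8 (0.85 ± 0.10, adjusted p 6.27e-06). Psmd14, the lid's deubiquitinase, had the largest rise of the lid in both lines. It went from 235, 253 and 245 CPM to 411, 431 and 396 CPM in NIH/3T3 (0.76 ± 0.14, adjusted p 0.000361), and from 197, 239 and 214 CPM to 409, 459 and 403 CPM in CGR8 (0.97 ± 0.13, adjusted p 1.76e-05). No 5 h library of either gene overlapped an untreated one. The scaffold subunits of the base were not called at 5 h, with 0.02 in NIH/3T3 and 0.15 in CGR8 for Psmd1, and -0.23 and -0.03 for Psmd2. Psmd11, a lid subunit that contacts the core, was at 296, 321 and 302 CPM in untreated CGR8 and at 313, 307 and 304 CPM at 5 h (0.01 ± 0.08, adjusted p 0.929).

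**Figure D2:**
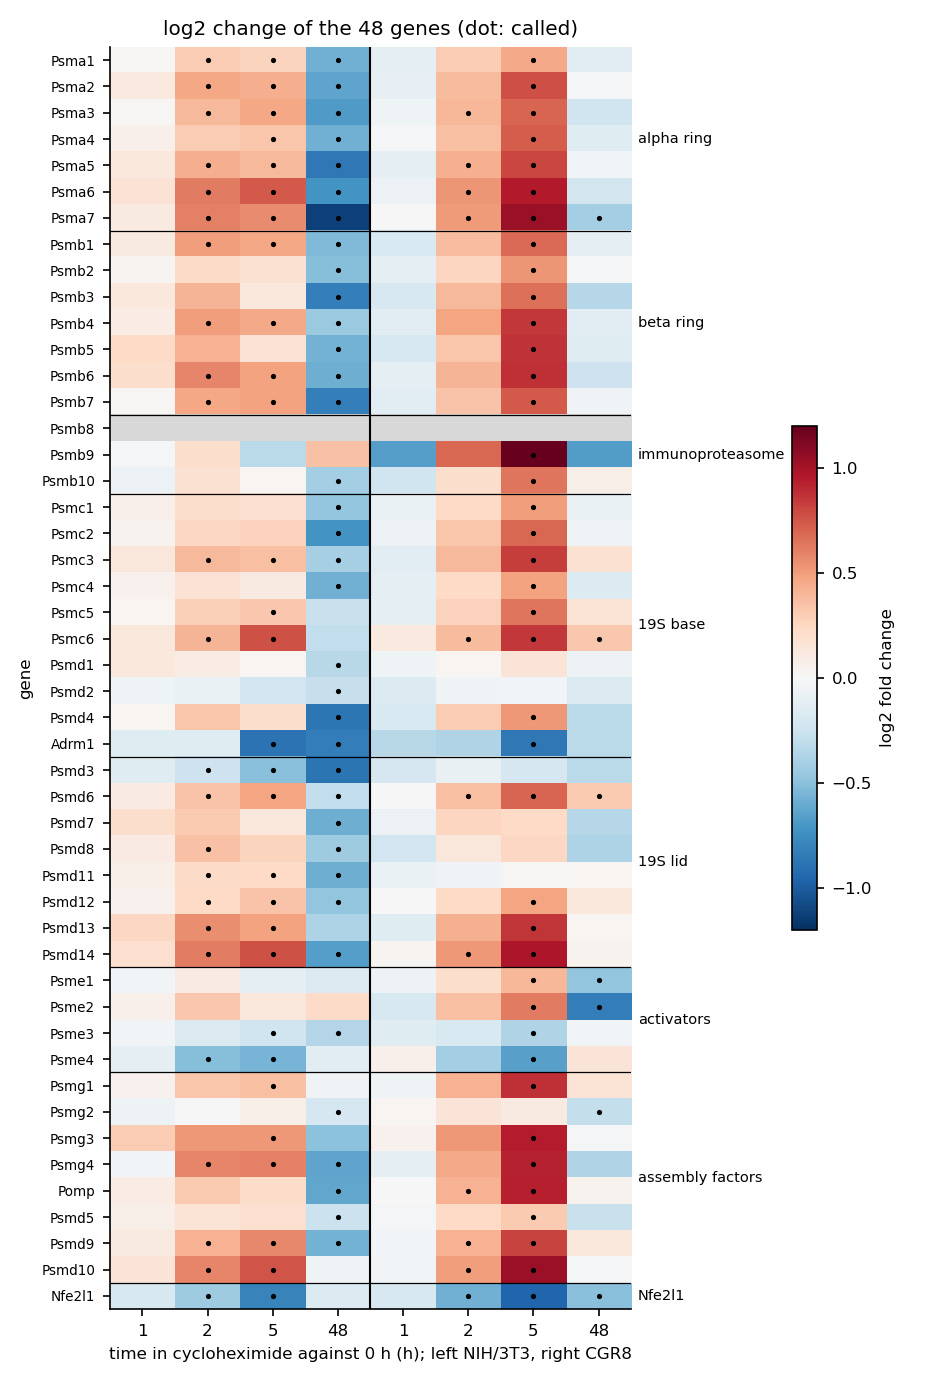
Log2 fold changes against 0 h of the 48 genes (rows, grouped by role), at 1, 2, 5 and 48 h in NIH/3T3 (left 4 columns) and CGR8 (right 4 columns), with red for higher, blue for lower, grey for not tested and a dot for a called change. Adrm1, Psme3, Psme4 and Nfe2l1 are blue and dotted at 5 h in both lines among mostly red rows, and the NIH/3T3 column at 48 h has 36 dots, all on blue.

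Against this rise, 4 genes fell at 5 h in both lines: Adrm1, Psme3, Psme4 and Nfe2l1. They were singled out after their values were seen. Adrm1 encodes a ubiquitin receptor at the tip of the cap. It stood at 150, 156 and 177 CPM in untreated NIH/3T3 and at 93.8, 79.4 and 87.3 CPM after 5 h (-0.89 ± 0.10, adjusted p 3.11e-06). In CGR8 it went from 158, 193 and 148 CPM to 105, 92.6 and 78.1 CPM (-0.86 ± 0.16, adjusted p 0.000321). The groups did not overlap in either line. Another ubiquitin receptor of the base, Psmd4, was higher in CGR8 (0.52, adjusted p 0.0101) and not called in NIH/3T3 (0.21). Psme4, the nuclear activator PA200, went from 249, 245 and 211 CPM to 148, 163 and 168 CPM in NIH/3T3 (-0.56 ± 0.12, adjusted p 0.00126) and from 328, 257 and 343 CPM to 151, 190 and 249 CPM in CGR8 (-0.65 ± 0.16, adjusted p 0.00335). Psme3, the nuclear PA28 gamma, changed by -0.24 in NIH/3T3 (adjusted p 0.0254) and -0.36 in CGR8 (adjusted p 0.00648). Psmd3, a structural subunit of the lid, fell in NIH/3T3 from 432, 391 and 473 CPM to 309, 303 and 305 CPM (-0.50 ± 0.09, adjusted p 0.000301). Its change in CGR8 was -0.20 ± 0.13 and not called, and the difference between the lines did not pass (0.39, adjusted p 0.118).

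Nfe2l1 fell as the subunit genes rose. Its levels in NIH/3T3 were 244, 219 and 245 CPM at 0 h, 222, 228 and 172 CPM at 1 h, 195, 165 and 165 CPM at 2 h, 139, 128 and 139 CPM at 5 h and 214, 209 and 212 CPM at 48 h. In CGR8 they were 246, 237 and 242 CPM at 0 h, 221, 208 and 208 CPM at 1 h, 183, 171 and 132 CPM at 2 h, 120, 130 and 126 CPM at 5 h and 179, 166 and 167 CPM at 48 h. From 2 h to 5 h all treated libraries lay under the untreated ones in both lines. The change at 5 h was -0.80 ± 0.10 in NIH/3T3 (adjusted p 1.22e-05) and -0.95 ± 0.11 in CGR8 (adjusted p 5.02e-06), and it did not differ beyond error between the lines (-0.06 ± 0.15, adjusted p 0.9). At 48 h CGR8 was still lower than untreated (-0.50 ± 0.11, adjusted p 0.00197), while NIH/3T3 was at -0.16 and not called (adjusted p 0.207). That value was called by voom with sample quality weights (-0.18, adjusted p 0.00169), in a fit of the groups compared alone (-0.16, adjusted p 0.021) and with length and GC trends removed (-0.26, adjusted p 0.00104).

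Of the 14 genes listed as partners of NRF1, 8 fell and 1 rose at 5 h in each line, beside 27.1% lower and 24% higher of all genes in NIH/3T3 and 27.2% and 24.9% in CGR8. Ngly1, the enzyme that strips N-glycans from NRF1, was the one that rose. It went from 13.1, 16.1 and 14 CPM to 36.9, 37 and 32.2 CPM in NIH/3T3 (1.29 ± 0.10, adjusted p 1.68e-07) and stayed at 43.7, 40.4 and 39.4 CPM at 48 h. In CGR8 its rise at 5 h was 0.52 ± 0.14 (adjusted p 0.00637), less than in NIH/3T3 (difference -0.69 ± 0.17, adjusted p 0.00879). Ddi2, the protease that cleaves NRF1, is named outside the rule for its role and was lower in both lines, at -0.54 in NIH/3T3 and -0.74 in CGR8 (adjusted p 0.000194 and 7.32e-05). Mafg, a small Maf protein that pairs with NRF1 on DNA, went from 132, 117 and 125 CPM to 39.7, 37.4 and 39.6 CPM in CGR8 (-1.68 ± 0.12, adjusted p 1.76e-07). Of 14 tested genes for proteins that associate with the proteasome, 1 rose and 7 fell in NIH/3T3 at 5 h, and 3 rose and 5 fell in CGR8, the latter near the shares of all genes just given. The largest change among them was that of Ubqln2, a shuttle for ubiquitinated proteins. It went from 82.6, 81.9 and 79.9 CPM to 38, 43.1 and 40.9 CPM in NIH/3T3, without overlap (-1 ± 0.11, adjusted p 1.88e-06), and by -0.87 ± 0.16 in CGR8 (adjusted p 0.000276). Principal transcripts ran from 1397 (Akirin2) to 9553 bases (Ddi2) among the partners and from 1472 (Sem1) to 7385 (Zfand5) among the associated factors. Across all genes the change at 5 h fell with transcript length, as given below. The part of length in the changes of these 2 lists was not tested. At 48 h 5 NRF1 partners were higher and 4 lower in NIH/3T3, and 3 and 3 in CGR8. Of all genes 26.7% were higher and 25.6% lower in NIH/3T3 and 12.2% and 15.6% in CGR8, so the NIH/3T3 counts lie near that share. Maff, another small Maf protein, went from 22.1, 25.4 and 27.1 CPM to 6.24, 7.39 and 8.18 CPM in NIH/3T3 (-1.78 ± 0.16, adjusted p 1.96e-07). Ogt, the enzyme that adds O-GlcNAc to proteins, went from 150, 136 and 147 CPM to 252, 226 and 259 CPM in CGR8 (0.77 ± 0.15, adjusted p 0.00133), and was higher in NIH/3T3 too (1.02 ± 0.11). No 48 h library of either overlapped an untreated one. Of the associated factors 1 was higher and 5 lower in NIH/3T3 at 48 h, and 1 and 1 in CGR8, beside the same shares. Zfand2a, a stress-induced partner of the cap, went from 76.6, 83.4 and 76.7 CPM to 45.1, 42.7 and 47.3 CPM in NIH/3T3 (-0.81 ± 0.08, adjusted p 6.25e-07). Psmf1, an inhibitor of the core, went from 47.2, 58.1 and 48.5 CPM to 35.2, 38.2 and 38.7 CPM in CGR8 (-0.46 ± 0.12, adjusted p 0.00974), again without overlap.

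**Figure D3:**
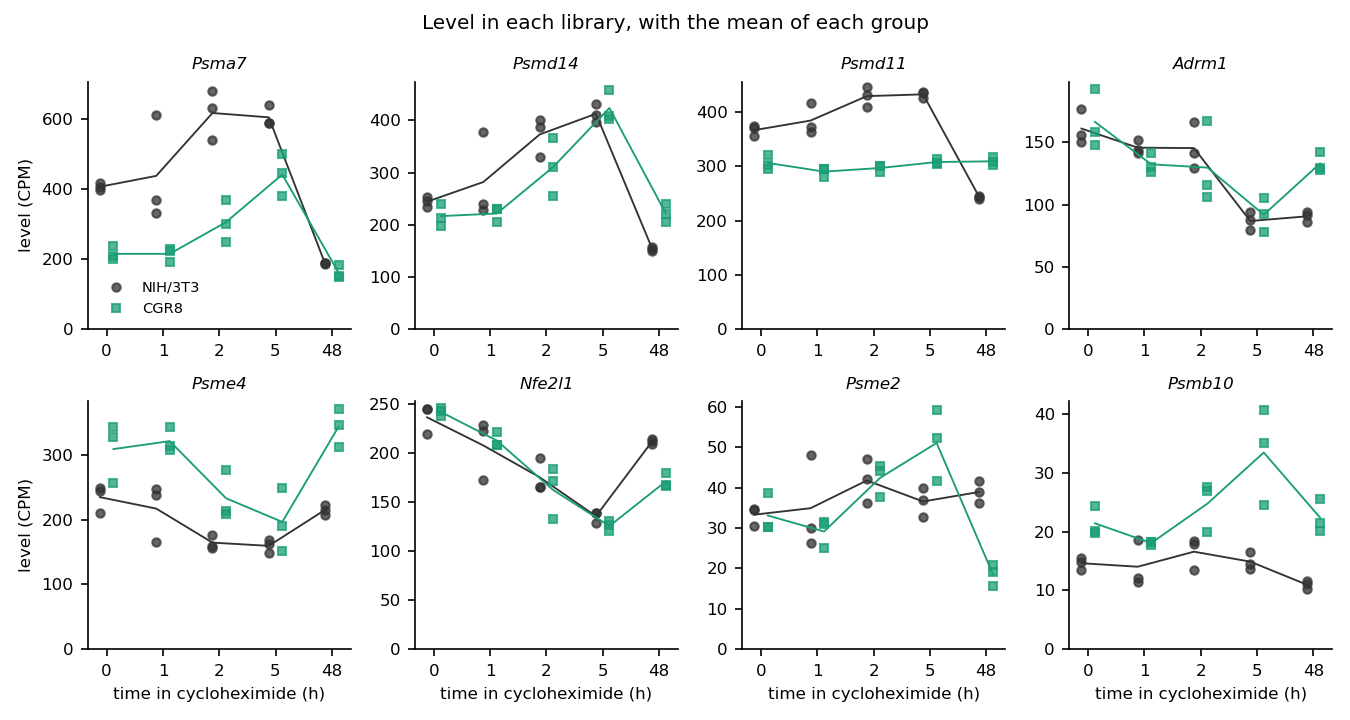
Level of 8 genes (y axis, CPM, from 0) in every library by time in cycloheximide (x axis, h, not to scale); circles are NIH/3T3, squares CGR8, lines join the means of 3 libraries. Psma7 and Psmd14 are highest at 2 to 5 h in NIH/3T3 and at 5 h in CGR8, Adrm1, Psme4 and Nfe2l1 are lower at 5 h than untreated and Adrm1 in NIH/3T3 is still low at 48 h, Psmd11 is near its untreated level in every CGR8 group, and Psme2 is lowest at 48 h in CGR8.

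The promoters of the set were searched for the letters of factors known at proteasome genes. RefSeq windows on GRCm38.p6, 250 bases before to 50 after the gene start, were in the table for 41 of the 48 members. The core of the antioxidant response element, TGACNNNGC on either strand, to which NRF1 binds as a dimer with a small Maf protein, was in 7 of 41 windows (17.1%), beside 14% of the windows of 27025 genes and 16.8% of those of 11588 genes tested here. These 7 stretches of up to 29 bases are shown because both genes that rose and genes that fell at 5 h hold the element. The element is in capitals, and all are on the strand of the gene, 5′ to 3′, so that an element on the other strand shows as its reverse complement.
Psmb6 (chr11:70525338-70525366, plus strand): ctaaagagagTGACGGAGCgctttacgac
Psmb5 (chr14:54618024-54618052, minus strand): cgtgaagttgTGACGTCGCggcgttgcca
Psmc6 (chr14:45329587-45329615, plus strand): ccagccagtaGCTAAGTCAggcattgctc
Psmd12 (chr11:107479278-107479299, plus strand): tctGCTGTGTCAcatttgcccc
Psmd9 (chr5:123228149-123228177, plus strand): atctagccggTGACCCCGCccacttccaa
Adrm1 (chr2:180171416-180171444, plus strand): cgctcccctaTGACACAGCaacaataggg
Psme4 (chr11:30771758-30771786, plus strand): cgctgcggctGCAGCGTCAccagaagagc
In CGR8 at 5 h the first 5 of these were called higher and Adrm1 and Psme4 lower. With length and GC trends removed, Psmb5 and Psmd9 kept their rise in CGR8, and Psmb6, Psmc6 and Psmd12 lost theirs. Adrm1 and Psme4 kept their fall. Psmb5, whose counts cannot be told from those of its copy, was not called in NIH/3T3 at 5 h. Wider stretches follow for Psmb6, which rose, and Adrm1, which fell, each the 250 bases before the gene start with the same letters in capitals.
Psmb6 (chr11:70525107-70525356, plus strand): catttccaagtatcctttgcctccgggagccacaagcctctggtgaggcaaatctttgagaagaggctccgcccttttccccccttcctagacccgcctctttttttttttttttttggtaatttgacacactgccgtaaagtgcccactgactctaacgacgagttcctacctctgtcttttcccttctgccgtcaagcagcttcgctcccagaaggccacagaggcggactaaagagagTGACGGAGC
Adrm1 (chr2:180171338-180171587, plus strand): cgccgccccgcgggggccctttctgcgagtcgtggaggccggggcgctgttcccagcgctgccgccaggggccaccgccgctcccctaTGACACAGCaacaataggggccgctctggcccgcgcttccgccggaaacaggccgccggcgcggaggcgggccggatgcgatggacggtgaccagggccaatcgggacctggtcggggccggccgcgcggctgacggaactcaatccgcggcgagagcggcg
In all 8 motifs were searched on both strands. Besides the element above these were its longer form with an A added at the end, the CCAAT box, 2 ETS-type motifs (CCGGAAG, and as the other GGAAGTG), the E-box CACGTG, the nuclear respiratory factor palindrome and the cAMP response element TGACGTCA. The shorter form lies within the longer one, so windows with the longer form also hold the shorter, and both ETS-type motifs overlap in their letters. CCGGAAG, picked out after the counts were seen, was in 16 of 41 member windows (39%), beside 9.9% of all genes and 18.7% of the genes tested. CCAAT was in 36.6% of member windows against 43.1% of tested genes, the longer element in 7.3% against 3.3%, GGAAGTG in 22% against 16%, CACGTG in 9.8% against 11.4%, the palindrome in 4.9% against 2.1% and TGACGTCA in 0 of 41 against 3.4%. A match here is a description of letters, not a bound site.

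Most assembly factors rose too. At 5 h 5 of 8 were higher in NIH/3T3 and 7 of 8 in CGR8, and 0 were lower in either line. Of all genes 24% were higher and 27.1% lower in NIH/3T3, and 24.9% and 27.2% in CGR8. With length and GC trends removed, 3 were higher and 1 lower in NIH/3T3, and 6 and 1 in CGR8. The median of the assembly factors then went from 0.44 to 0.22 in NIH/3T3 and from 0.90 to 0.29 in CGR8. Psmd10, a chaperone of the base ATPases, went from 38.9, 41.4 and 42.2 CPM to 70.1, 67.5 and 68.3 CPM in NIH/3T3 (0.75 ± 0.14, adjusted p 0.000304). In CGR8 it went from 21.2, 26.8 and 22.1 CPM to 49.5, 53.8 and 40.8 CPM (1.04 ± 0.15, adjusted p 5.04e-05). Pomp stood at 126, 156 and 143 CPM in untreated CGR8 and at 308, 281 and 223 CPM at 5 h (0.93 ± 0.13, adjusted p 3.56e-05). In NIH/3T3 the Pomp values were 264, 249 and 259 CPM and 313, 294 and 291 CPM (0.22 ± 0.14, not called), and the difference between the lines passed (0.81 ± 0.21, adjusted p 0.00849). Psmg2, a partner of Psmg1, was not called at 5 h in either line (0.07 and 0.11).

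The immunoproteasome genes stayed low throughout. Psmb10 stood at 13.5, 14.9 and 15.5 CPM in untreated NIH/3T3 and at 19.8, 24.4 and 20.1 CPM in untreated CGR8. At 5 h it was at 16.6, 13.6 and 14.5 CPM in NIH/3T3 (0.02, not called) and at 40.7, 35.2 and 24.6 CPM in CGR8, just above the untreated range (0.64 ± 0.17, adjusted p 0.00488). At 48 h its values were 10.3, 11.1 and 11.6 CPM in NIH/3T3 (-0.41 ± 0.17, adjusted p 0.0466, a call lost when any 1 of the 6 libraries compared was left out) and 20.1, 25.6 and 21.5 CPM in CGR8. Psmb9 had 284 counts over the 15 NIH/3T3 libraries and 160 over those of CGR8, with at most 28 in a library, and it overlaps Tap1, which lies on the other strand and has 4877 counts. Its values were 0.418, 0.363 and 0.251 CPM in untreated CGR8 and 0.977, 1.03 and 0.506 CPM at 5 h (1.23 ± 0.35, adjusted p 0.00742). In NIH/3T3 they were 0.741, 1.07 and 0.559 CPM untreated and 0.618, 0.595 and 0.651 CPM at 5 h (-0.32 ± 0.37, not called). The difference between the lines at 5 h (1.64 ± 0.51, adjusted p 0.0314) was not called by DESeq2 (1.59, adjusted p 0.0603), nor without any 1 of 7 of the 12 libraries compared, with adjusted p from 0.055 to 0.151. At 48 h they were 1.05, 0.71 and 1.25 CPM in NIH/3T3 and 0.147, 0.336 and 0.165 CPM in CGR8, not called in either line. Psmb8 had at most 2 counts in any library, under the floor of 3 counts, and at that level no change was detectable.

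At 48 h most members were called lower than untreated in NIH/3T3, and few in CGR8. In NIH/3T3 36 members were lower than untreated and 0 higher, beside 25.6% and 26.7% of all genes, and the median was -0.51 against -0.01. All 14 core genes were lower (-1.12 to -0.45), 15 of the 18 cap genes, and 5 of the 8 assembly factors. In CGR8 2 members were higher and 5 lower, beside 12.2% and 15.6%, and the median was -0.11 against 0.00. That count of 7 was 2 to 5 with any 1 library left out: 3 without 0 h A, 4 without 0 h C or 48 h B and 2 without 48 h C. The median was 0.03 without 0 h B. Against 5 h, 39 members had fallen in each line, beside 31.4% of all genes in NIH/3T3 and 28.6% in CGR8, while 2 were higher in NIH/3T3 and 4 in CGR8, beside 34.1% and 28.9%. With length and GC trends removed, 31 of the 39 falls were kept in NIH/3T3, where 1 became a call in the other direction, and 25 of 39 in CGR8, where 4 did. The medians went from -0.80 to -0.40 in NIH/3T3 and from -0.72 to -0.26 in CGR8. The comparisons of 48 h with 5 h share libraries with those against 0 h.

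Psma7 led the fall in NIH/3T3. Its 185, 189 and 188 CPM at 48 h lay under the untreated 396, 417 and 406 CPM by a fold of 0.461 (-1.12 ± 0.16, adjusted p 3.4e-05). In CGR8 it was at 151, 183 and 150 CPM (-0.41 ± 0.14, adjusted p 0.0428), a call lost in 5 of the 6 fits that left out 1 of the libraries compared. Psmb3, a structural beta subunit, went from 281, 270 and 308 CPM to 167, 159 and 161 CPM in NIH/3T3 (-0.82 ± 0.16, adjusted p 0.000482). Psmd4 went from 184, 189 and 215 CPM to 110, 110 and 103 CPM (-0.87 ± 0.13, adjusted p 4.83e-05). Psmd3, already low at 5 h, went on to 239, 234 and 233 CPM (-0.88 ± 0.09, adjusted p 1.26e-06), and Adrm1 was at 91.5, 86.2 and 94 CPM (-0.83 ± 0.10, adjusted p 4.25e-06). Psmg4, an alpha ring chaperone, went from 16.2, 14.5 and 18.9 CPM to 10.5, 10.4 and 11.3 CPM (-0.63 ± 0.16, adjusted p 0.00324). Psme3 went from 353, 341 and 342 CPM to 263, 278 and 274 CPM (-0.35 ± 0.09, adjusted p 0.00296). None of these 48 h groups overlapped the untreated group.

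In CGR8 the 2 members above untreated at 48 h were in the cap. Psmc6 was at 283, 307 and 319 CPM, against 226, 246 and 256 CPM (0.32 ± 0.10, adjusted p 0.0218), and Psmd6, a lid subunit, at 200, 224 and 215 CPM, against 158, 190 and 165 CPM (0.31 ± 0.11, adjusted p 0.038). The call for Psmc6 was lost without 0 h A, 48 h B or 48 h C, and that for Psmd6 without 0 h A, 0 h C, 48 h B or 48 h C. With length and GC trends removed Psmc6 was at 0.06 and lost its call (edgeR adjusted p 0.731), while Psmd6 kept its call. Both calls were lost with no low-count filter (adjusted p 0.0694 and 0.0785). Psmg2, at 35.4, 37.4 and 37.8 CPM against 44.3, 45.5 and 45.2 CPM, fell by 0.29 ± 0.10 (adjusted p 0.046), a call lost without any 1 of the 6 libraries.

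**Figure D4:**
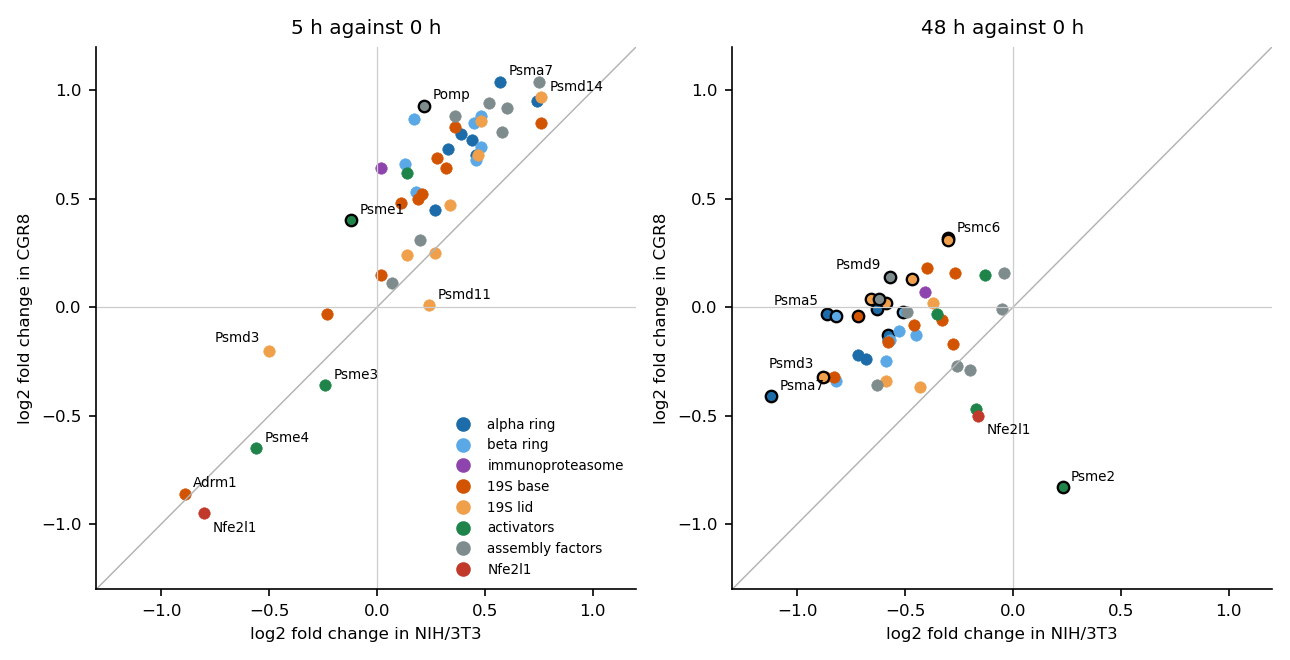
Log2 fold change against 0 h in NIH/3T3 (x axis) and in CGR8 (y axis) of 46 members (Psmb8 and Psmb9, with few counts, are left out), at 5 h (left) and 48 h (right), coloured by role; a black rim marks a called difference between the lines, and the grey diagonal marks equal change. At 5 h the points run along the diagonal with CGR8 mostly above it, and at 48 h most lie left of 0 for NIH/3T3 and near 0 for CGR8, with Psme2 alone at the lower right.

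The difference between the lines was tested as an interaction, CGR8 minus NIH/3T3. At 1 and 2 h edgeR called 0 members, beside 0.16% and 2.02% of all genes. At an unadjusted p under 0.05 there were 0 at 1 h (4.05% of all genes) and 1 at 2 h (10.1%), and DESeq2 called 0 and 1. At 5 h 3 members were higher in CGR8 and 0 lower, beside 8.18% and 5.09%: Pomp, Psme1 and Psmb9. The median over the members was 0.40 against 0.13 over all genes, but 0.12 without CGR8 5 h A, 0.20 without CGR8 5 h B and 0.19 with length and GC trends removed. This count moved with single libraries, from 0 without CGR8 5 h B to 20 without CGR8 5 h C. It was 1 without NIH/3T3 5 h B, NIH/3T3 5 h C, CGR8 0 h C or CGR8 5 h A, 14 without CGR8 0 h B and 30 without the libraries that stand apart. At 48 h 15 were higher in CGR8 and 1 lower, beside 9.78% and 12.1%, with a median of 0.42 against -0.03. They include 6 core genes, 7 cap genes and the assembly factors Pomp and Psmd9. The count of 16 at 48 h was 10 without CGR8 48 h B, 26 without CGR8 0 h B and 35 without the libraries that stand apart. Psma5 of the alpha ring had the largest positive difference. It was at 183, 188 and 190 CPM untreated and 105, 103 and 101 CPM at 48 h in NIH/3T3, and at 178, 224 and 182 CPM and 186, 205 and 180 CPM in CGR8 (0.81 ± 0.21, adjusted p 0.00471). Psmd11 had the smallest adjusted p: it fell in NIH/3T3 from 356, 374 and 370 CPM to 240, 244 and 245 CPM and was at 303, 317 and 308 CPM in CGR8 (difference 0.59 ± 0.10, adjusted p 6.6e-05). At 5 h its difference was the most negative of the members, -0.14 ± 0.10, and did not pass in edgeR (adjusted p 0.383) but did in DESeq2 (-0.22, adjusted p 0.0208).

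The PA28 alpha and beta genes, Psme1 and Psme2, are interferon-inducible. At 48 h Psme2 was the only member with a called negative difference between the lines. Psme2 was at 30.3, 38.7 and 30.3 CPM in untreated CGR8, at 59.2, 52.4 and 41.6 CPM at 5 h and at 20.9, 19.2 and 15.6 CPM at 48 h. The 48 h libraries lay under all others (-0.83 ± 0.16 against 0 h, adjusted p 0.000851). In NIH/3T3 it was at 30.6, 34.8 and 34.5 CPM untreated and at 41.7, 38.8 and 36.3 CPM at 48 h (0.23 ± 0.17, not called). The lines differed by -1.08 ± 0.24 (adjusted p 0.00164), and the difference ranged from -1.16 to -0.93 when 1 library was left out. Psme1 had the same direction in CGR8, from 51.1, 51.2 and 50.4 CPM to 39.2, 39.3 and 32 CPM (-0.47 ± 0.14, adjusted p 0.0175), but its difference between the lines did not pass (-0.31, adjusted p 0.291). A near copy of Psme2, Psme2b, held 6.62% as many counts as Psme2 over all libraries. Among 10 interferon-inducible antigen presentation genes, 8 rose and 2 fell in NIH/3T3 at 48 h, and of the 9 tested in CGR8 3 rose and 3 fell. Of all genes 26.7% rose and 25.6% fell in NIH/3T3, and 12.2% and 15.6% in CGR8. Tap2, a peptide transporter subunit, went from 3.16, 3.03 and 3.71 CPM to 11.7, 11.4 and 10.9 CPM in NIH/3T3 (1.77 ± 0.16, adjusted p 2.8e-07). Tapbp, the chaperone tapasin, was at 18.6, 18.1 and 19.3 CPM untreated, 9.23, 9.49 and 8.42 CPM at 5 h and 34.5, 31.9 and 34.5 CPM at 48 h in NIH/3T3. In CGR8 it was at 26.1, 25.9 and 24.6 CPM untreated, 16, 14 and 13.6 CPM at 5 h and 20, 15.8 and 14.9 CPM at 48 h (difference between the lines at 48 h -1.46 ± 0.18, adjusted p 1.02e-06).

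The tissue-restricted alpha subunit Psma8, best known from the testis, was present in the stem cell line and undetected in the fibroblasts. It had 0 counts in all 15 NIH/3T3 libraries, which allows up to 3 counts or 0.165 CPM in the shallowest. In CGR8 it was at 14.4, 17.5 and 17.3 CPM untreated, 18.7, 21 and 20.9 CPM at 5 h and 24.1, 24.2 and 25.5 CPM at 48 h. All 48 h libraries lay above the others (0.59 ± 0.11 against 0 h, adjusted p 0.00107). That limit covers counting error only, and PCR copies are not independent molecules.

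The rise at 2 and 5 h moved with transcript length. Member transcripts are short: the longest transcript of a member had a median of 1931 bases, against 3069.5 for genes tested in NIH/3T3 and 3028 in CGR8. Across the 47 members the change at 5 h correlated with log2 length of the principal transcript at Pearson's r of -0.575 in CGR8 and -0.383 in NIH/3T3. Across all genes, with the length of the longest transcript instead, r was -0.412 and -0.238. Genes are not independent, and all share the same libraries. The slope of a library's log2 levels on log2 length, relative to the mean of its line, was -0.411, -0.232 and -0.106 in the CGR8 5 h libraries and 0.211 to 0.226 in the NIH/3T3 48 h libraries. In CGR8 at 5 h the libraries with the steeper slopes were those with the higher core levels.

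With smooth trends in length and GC content removed from each library, the median at 5 h fell to 0.03 in NIH/3T3 and 0.18 in CGR8, and that at 48 h in NIH/3T3 to -0.34. Of the calls at 5 h, 10 of 24 rises in NIH/3T3 and 17 of 36 in CGR8 were kept, and all 5 and all 4 falls. Among the rises, 3 in NIH/3T3 (Psma1, Psma4 and Psmd11) and 2 in CGR8 (Psma1 and Psmb2) became calls in the other direction. Psma7 rose by 0.62 and 0.85, Pomp in CGR8 by 1.03, and Adrm1 fell by 0.52 and 0.45, Psme4 by 0.60 and 0.48 and Nfe2l1 by 0.43 and 0.50 in NIH/3T3 and CGR8. In contrast Psmb6, Psmc6 (0.00 and 0.11) and Psmd10 lost their calls in both lines, and Psma6 (0.12, adjusted p 0.254) and Psmd14 (0.19, adjusted p 0.0669) in CGR8. The fall at 48 h in NIH/3T3 kept 33 of 36 calls, and the difference between the lines at 48 h 11 of 15 higher calls and that of Psme2 (-1.21). How far length or GC content takes part in the rise was not tested.

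**Figure D5:**
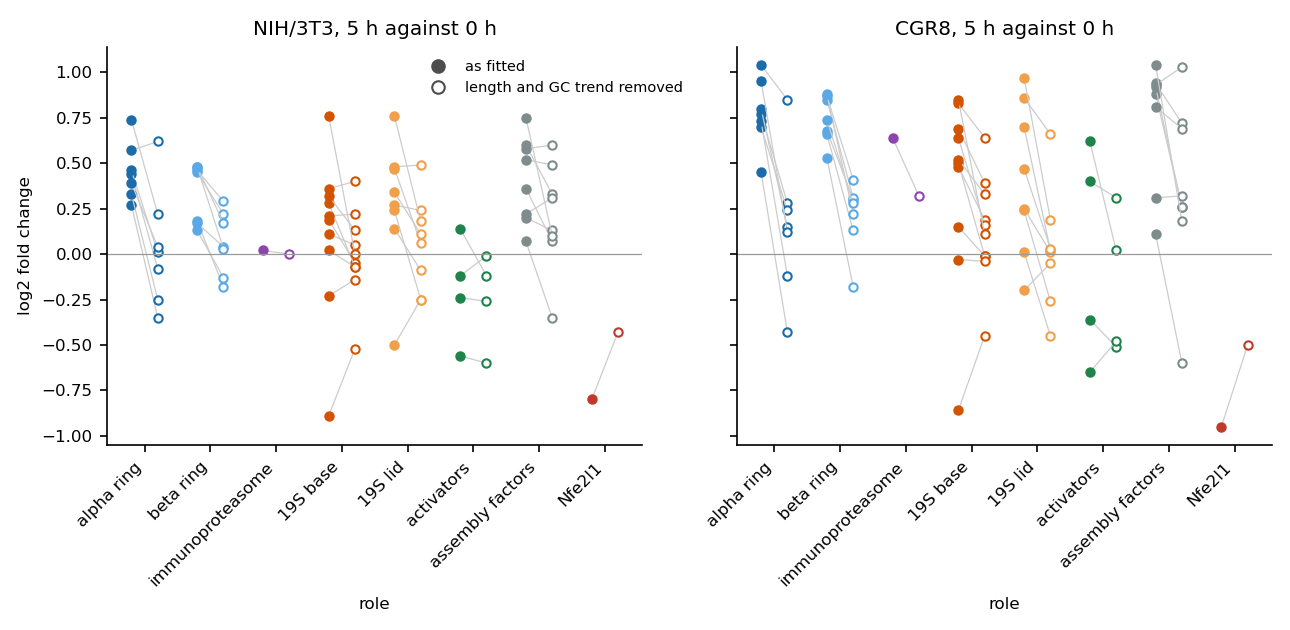
Log2 fold change at 5 h against 0 h (y axis) of the members tested other than Psmb9, by role (x axis), as fitted (filled points) and with smooth trends in transcript length and GC content removed from each library (open points, joined to the same gene), in NIH/3T3 (left) and CGR8 (right). The filled points of the alpha and beta rings are all above 0 and most of their open points lie lower, some below 0, while Adrm1, Psme4, Psme3 and Nfe2l1 stay below 0 in both.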

How the data were processed

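RNA from 30 libraries was sequenced with a stranded mRNA ligation kit, per the labels' protocols. The deposited values are raw counts per gene, made by the authors with STAR and DESeq2 on GRCm39, per the submitters' processing notes; the counting tool, its use of strand and the annotation release are not given in the sources used here. Of 57186 identifiers 51880 had a symbol in GENCODE M21 when versions were ignored. Totals ran from 18.2 to 30.5 M counts (median 24.3).

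Genes passing filterByExpr (minimum count 10, total 15) were scaled by TMM and tested with edgeR 4.0.16 (quasi-likelihood, R 4.3.3), in a fit per line and a joint fit for differences between lines, with Benjamini-Hochberg adjustment over all genes and a threshold of 0.05. SE is the log2 fold change over the square root of F. DESeq2 1.42.0 and voom (limma 3.58.1) were alternatives. Length and GC trends were natural splines with 4 degrees of freedom each, fitted per library and used as offsets. The scripts were tested on simulated data.

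The members and lists were chosen with earlier results of these data known. Values in every library are given for the member of each role with the largest called change at 5 h and 48 h in each line (10 CPM or more on average in whichever group was higher), for Nfe2l1, Psmb8, Psmb9 and Psmb10 whatever their values, for the largest line difference in each direction, and for the largest called change of each related list; genes outside this rule are named for their role. Psmb5 counts cannot be told from those of its copy. In all, 15 of 48 members have a stretch of at least 200 bases with 95% identity or more in another gene. The search did not set apart copies elsewhere from genes that overlap a member, such as Nek6 with Psmb7 or Tap1 with Psmb9.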

Additional observations from a re-analysis of the deposited data

Results flagged for a closer look

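The response differed between the lines, by the interaction test of edgeR, for the following members (CGR8 minus NIH/3T3, log2). At 5 h these were Psmb9 (1.64), Psme1 (0.61) and Pomp (0.81). They are 6.38% of the members tested, beside 8.18% of all genes called higher, so the members do not exceed that share. The count ran from 0 to 20 when 1 library was left out. Psmb9, with few counts, was not called by DESeq2 (adjusted p 0.0603), and Psme1 lost its call with length and GC trends removed.

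At 48 h the alpha ring genes were Psma1 (0.44), Psma2 (0.6), Psma5 (0.81) and Psma7 (0.69), and the beta ring genes Psmb2 (0.47) and Psmb7 (0.76). Psmb7 overlaps Nek6, which lies on the other strand and holds 22.9% as many counts. In the base they were Psmc2 (0.65) and Psmc6 (0.6), and in the lid Psmd3 (0.54), Psmd6 (0.6), Psmd11 (0.59), Psmd12 (0.58) and Psmd14 (0.68). The assembly factors were Pomp (0.64) and Psmd9 (0.7). Psme2 alone was lower in CGR8 (-1.08). Of the members tested 31.9% were higher and 2.13% lower, beside 9.78% and 12.1% of all genes. The count of members called at 48 h ran from 10 to 26 when 1 library was left out.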

How the results depend on the processing

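Counts of members called moved most at 2 h, in CGR8 at 48 h and in the differences between lines. With voom and sample quality weights they were 7 (NIH/3T3, 1 h), 41 (NIH/3T3, 2 h), 1 (CGR8, 1 h), 32 (CGR8, 2 h), 15 (CGR8, 48 h), 38 (line difference, 5 h) and 37 (line difference, 48 h). Without the libraries that stand apart, an alternative chosen after seeing the data, they were 7, 40, 30 and 35 for NIH/3T3 at 1 h and 2 h and the line difference at 5 h and 48 h. With library size alone CGR8 had 18 at 2 h and 11 at 48 h; with a mean of at least 5 CPM 22 at 2 h and 1 for the line difference at 5 h. With no low-count filter CGR8 had 4 at 48 h and the line difference 9 at 5 h. With only the groups compared CGR8 had 1 at 2 h and 12 at 48 h, and the line difference 5 and 30. With length and GC trends removed CGR8 had 7 at 2 h, 26 at 5 h and 12 at 48 h. DESeq2 called 1 for the line difference at 2 h. Leaving out 1 library gave 13 to 22 (NIH/3T3, 2 h), 19 to 23 (NIH/3T3, 5 h), 28 to 34 (NIH/3T3, 48 h), 1 to 30 (CGR8, 2 h), 38 to 41 (CGR8, 5 h), 2 to 5 (CGR8, 48 h), 0 to 20 (line difference, 5 h) and 10 to 26 (line difference, 48 h). The cause was not tested. Shares of all genes called under each alternative are not given, here or above. These counts therefore show only how the calls of members moved, not whether members exceed all genes. Pairing of the libraries by replicate letter was not seen: in 0 of 20 pairs of groups did every same-letter correlation pass 0.1, with a range from -0.58 to 0.42. This rule cannot show that the letters are unpaired, and the labels do not say. With a replicate block the count was 4 in CGR8 at 48 h and 16 between untreated lines. Counts of genes with few reads, Psmb8 and Psmb9 above all, are limited by depth.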
